A study of Rattus norvegicus with 12 samples.

Results

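The epidermal growth factor (EGF) family of ligands and its ERBB receptors was followed in wound tissue of diabetic rats. Its members were 10 genes, chosen by name, namely the receptors *Egfr*, *Erbb2*, and *Erbb3* and the ligands *Hbegf*, *Areg*, *Epgn*, *Tgfa*, *Btc*, *Ereg*, and *Nrg1*, of 25620 genes in the count table. All 10 were listed, and 8 of them were tested, because the reads of *Btc* and *Ereg* were too few for the filter on low counts. Male SD rats with diabetes induced by streptozotocin received a full-thickness wound on the back, which in the control group was given saline and in the other groups *A. fulica* d-SMG (dried snail mucus gel), s-GAG (the glycosaminoglycan of the mucus), or the commercial alginate dressing Alg. RNA of the skin was sequenced on day 3, 7, and 14, with 1 library for each of the 4 treatments on each of the 3 days, 12 libraries altogether. The rats were 8 to 12 weeks old. The deposited labels do not say how many animals gave each library, and a treatment was therefore replicated only across days.

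ERBB receptors are tyrosine kinases of the cell surface. Their ligands are made as membrane-bound precursors that are cut free by ADAM proteases, and the receptors signal as pairs through RAS and ERK and through PI3 kinase. ERBB2 has no known ligand of its own and acts as a partner, whereas the kinase domain of ERBB3 is weak and ERBB3 signals mainly in such pairs. In skin, EGFR in basal keratinocytes drives proliferation and migration, and HB-EGF, amphiregulin, TGF-alpha, and epigen are known products of keratinocytes.

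The libraries held from 13748887 to 38302461 reads on genes. One of them stood apart. In the d-SMG library of day 3, the summed level of 7 basal keratinocyte genes was 84.9 CPM (reads of a gene scaled to the library total after TMM normalization), against 4185 to 33808 CPM in the other 11 libraries, with none of the 7 at 0 reads in any library. That of 8 suprabasal keratinocyte genes was 16.5 CPM, against 309 to 6404 CPM, and that of 12 skeletal muscle genes was the highest of all libraries, at 247310 CPM, against 5638 CPM at the lowest. This library, labelled as skin like the others, thus held few reads of the defining genes of epidermis, and the results that rest on it are also given without it. In whole tissue, fewer cells of a type and less RNA in each cell cannot be told apart.

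*Egfr*, the receptor of HB-EGF, amphiregulin, epigen, TGF-alpha, betacellulin, and epiregulin, ranged from 14.8 to 84.6 CPM over the 12 libraries, with a median of 44.2 CPM. In the control wounds it was 23.6, 35.8, and 45.3 CPM on day 3, 7, and 14, respectively. In the d-SMG wounds it was 14.8, 35.1, and 68.0 CPM on the same days. Both series were highest on day 14. With s-GAG, *Egfr* was 70.4, 84.6, and 38.5 CPM, and with Alg 49.3, 43.0, and 69.0 CPM. The s-GAG wounds thus had their highest values on day 3 and 7 and the lowest on day 14, and the values of all 3 dressings overlapped with those of the control.

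*Erbb2*, the partner receptor, was 24.9, 18.8, and 46.9 CPM in the control and 22.6, 19.8, and 45.6 CPM with d-SMG on day 3, 7, and 14, so that both were close to each other on each day and highest on day 14. It was 38.4, 44.6, and 60.6 CPM with s-GAG and 33.1, 39.1, and 33.03 CPM with Alg. On day 3 and 7 the s-GAG and Alg libraries lay above the control and d-SMG libraries, whereas on day 14 Alg had the lowest value. *Erbb3*, the receptor that binds neuregulins, was 35.5, 29.9, and 37.9 CPM in the control and 24.7, 38.2, and 25.4 CPM with d-SMG. With s-GAG it was 24.9, 34.3, and 13.8 CPM, and with Alg 29.2, 23.7, and 59.3 CPM. The lowest and the highest *Erbb3* value of the 12 libraries were thus the s-GAG and the Alg library of the same day, day 14.

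Of the ligands that bind EGFR, *Hbegf* (heparin-binding EGF-like growth factor) had the narrowest range, from 7.01 to 18.8 CPM, a ratio of 2.68. It was 9.63, 9.70, and 7.18 CPM in the control on day 3, 7, and 14, and 16.6, 7.01, and 18.8 CPM with d-SMG. The lowest value and both of the highest were therefore d-SMG libraries. The 3 values were 11.2, 14.7, and 9.29 CPM with s-GAG, and 12.8, 9.44, and 12.2 CPM with Alg. In the d-SMG library of day 3, where the keratinocyte genes were near their lowest, *Hbegf* stood at 16.6 CPM, the second highest of the 12 libraries, while 5 other members (*Egfr*, *Areg*, *Epgn*, *Tgfa*, and *Nrg1*) each had their lowest value of all libraries there.

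*Areg* (amphiregulin) was 2.88, 1.70, and 3.81 CPM in the control on day 3, 7, and 14, and 6.31, 7.68, and 10.9 CPM with s-GAG, so that these groups did not overlap. With d-SMG it was 0.504, 5.43, and 11.7 CPM, and with Alg 4.77, 2.19, and 10.2 CPM. Apart from the d-SMG library of day 3, which held 6 reads of *Areg*, each dressed library lay above the control of its day, 8 of 9 in all. *Epgn* (epigen) was 2.25, 1.09, and 1.25 CPM in the control and 7.17, 9.50, and 9.56 CPM with s-GAG. With Alg it was 6.43, 4.32, and 5.53 CPM, also above every control value, and with d-SMG 0.0840, 1.19, and 9.93 CPM. Epigen thus had both its lowest value (1 read, day 3) and its highest (158 reads, day 14) in d-SMG libraries, and 8 of 9 dressed libraries lay above the control of their day. Of all 15354 genes tested, 8.97% lay above the control of the day in at least 8 of the 9 dressed libraries. *Areg* and *Epgn* did not overlap between s-GAG and control, both being higher (2 of 8 members, against 9.8% of all genes higher and 7.44% lower without overlap), and *Epgn* alone did not overlap between Alg and control (1 of 8 members, against 6.04% higher and 4.12% lower). No member was free of overlap between d-SMG and control, where 2.7% of all genes were higher and 1.06% lower without overlap.

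*Areg* and *Epgn* lie next to 2 other ligand genes of the family. In the RefSeq gene order of the rat (GRCr8), *Btc*, *Areg*, *Ereg*, and *Epgn* are 4 consecutive genes on chromosome 14, and the deposited tables also place all 4, and *Egfr*, on chromosome 14. RefSeq promoter windows (250 bases before to 50 after the start of the gene) were given for 7 of the 10 members, not for *Erbb3*, *Ereg*, and *Nrg1*. The 250 bases before the start are shown for the neighbours *Areg*, *Epgn*, and *Btc*, since the first 2 were the members most often above the control and the third was not. They are written 5′ to 3′ on the strand of the gene, and capitals mark matches to the TATA box TATAAA, the GC box GGGCGG, the AP-1 site TGANTCA, or the cAMP response element TGACGTCA (a match on the other strand reads as its reverse complement). *Areg* is on the minus strand (GRCr8, chr14:17265642-17265891), *Epgn* on the minus strand (chr14:17369001-17369250), and *Btc* on the plus strand (chr14:16992418-16992667).
Areg: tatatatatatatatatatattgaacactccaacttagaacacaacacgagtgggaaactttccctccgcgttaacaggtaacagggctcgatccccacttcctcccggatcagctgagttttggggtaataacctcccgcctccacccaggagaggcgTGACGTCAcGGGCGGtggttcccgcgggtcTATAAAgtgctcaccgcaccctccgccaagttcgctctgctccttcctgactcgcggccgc
Epgn: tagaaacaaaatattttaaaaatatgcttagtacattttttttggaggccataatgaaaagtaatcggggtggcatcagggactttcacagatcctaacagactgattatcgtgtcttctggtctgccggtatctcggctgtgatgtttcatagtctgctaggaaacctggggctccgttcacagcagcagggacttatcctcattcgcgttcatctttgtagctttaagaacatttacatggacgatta
Btc: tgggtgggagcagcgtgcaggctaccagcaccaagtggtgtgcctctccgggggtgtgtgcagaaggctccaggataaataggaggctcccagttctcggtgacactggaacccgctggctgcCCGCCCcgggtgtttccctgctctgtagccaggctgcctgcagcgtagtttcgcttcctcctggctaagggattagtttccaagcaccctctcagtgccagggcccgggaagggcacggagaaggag
The *Areg* window held, in order, TGACGTCA, then GGGCGG, and then TATAAA, which did not overlap and began 91, 82, and 61 bases before the start, respectively. *Areg* was the only member of the 7 with TATAAA or TGACGTCA in its window. Over all 33469 windows of the table, 14.2% held TATAAA, 33.1% GGGCGG, 7.33% TGANTCA, and 1.83% TGACGTCA on either strand. The *Btc* window held 1 GGGCGG on the other strand, 127 bases before the start, and the *Epgn* window none of the 4 motifs. GGGCGG was found in 5 of the 7 windows (of 300 bases) and TGANTCA in none. These matches describe letters, not bound sites.

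*Tgfa* (TGF-alpha) was 2.63, 2.44, and 5.59 CPM in the control and 0.588, 3.34, and 7.67 CPM with d-SMG on day 3, 7, and 14. With s-GAG it was 3.87, 5.15, and 4.44 CPM, and with Alg 3.02, 4.45, and 9.99 CPM. Day 14 held the highest value in the control, d-SMG, and Alg wounds, whereas the s-GAG wounds varied little between days. *Nrg1* (neuregulin, a ligand of ERBB3 that is also made by nerve and mesenchymal cells) was 3.88, 5.97, and 2.22 CPM in the control and 1.18, 5.15, and 7.67 CPM with d-SMG. It was 3.70, 8.87, and 7.10 CPM with s-GAG and 5.55, 5.18, and 13.1 CPM with Alg. On day 14 the control library had the lowest *Nrg1* value of the 4, below each dressed library, whereas on day 3 and 7 the control lay between them.

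*Btc* (betacellulin) and *Ereg* (epiregulin) were near the limit of detection. *Btc* had 68 reads in all libraries together, of which 26 were in the control library of day 14 (1.25 CPM), while the other 11 libraries had from 1 to 10 reads each. On day 14 the d-SMG, s-GAG, and Alg libraries held 2, 1, and 3 reads of *Btc*, respectively. The control library of that day was 9.97 times the d-SMG library, with a 95% counting interval of the log2 ratio of d-SMG to control from −6.44 to −1.32. Likewise the log2 ratio to that control was −4.20 (−9.55 to −1.59) with s-GAG and −2.73 (−5.10 to −1.03) with Alg. The same control library had the highest summed suprabasal keratinocyte level, 6404 CPM, and the part of those cells in its *Btc* reads was not tested. *Ereg* had 22 reads in all. It was at 0 reads in 6 of the 12 libraries, among them all 4 of day 3, and its highest counts were 8 reads in the Alg library and 5 reads in the s-GAG library of day 14. A count of 0 in the control library of day 3 allows up to 0.154 CPM before TMM (exact Clopper-Pearson 95% interval), so that a lower level of *Ereg* was not detectable at this depth. Such intervals cover the counting error only.

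**Figure D1:**
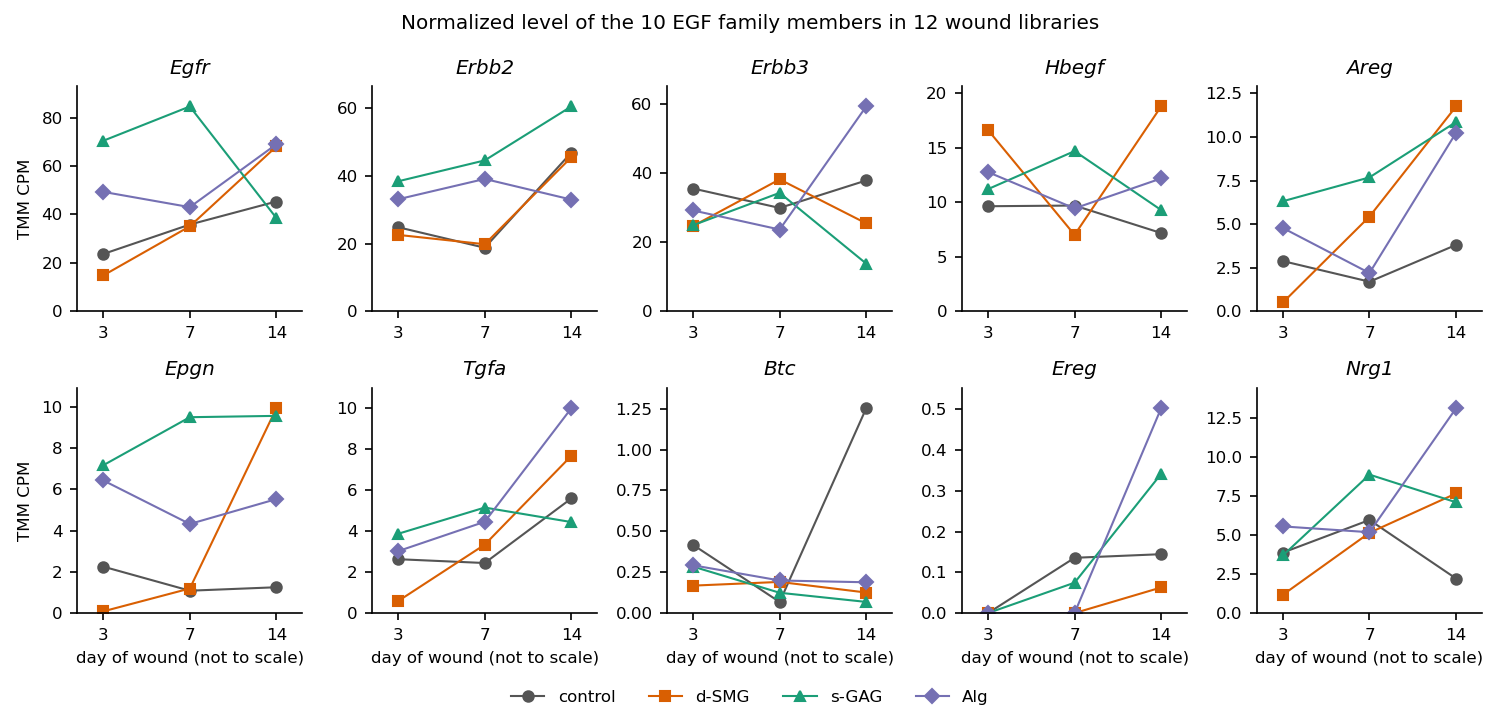
TMM-normalized CPM (vertical axis, linear and starting at 0, its own scale in each panel) of the 10 members on day 3, 7, and 14, with 1 point per library and a line per treatment. *Areg* and *Epgn* show the s-GAG points (6.31 to 10.9 and 7.17 to 9.56 CPM) above all control points, and *Btc* shows a single high control point on day 14.

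CPM depends on the length of a gene, and the genes were therefore compared with each other by the deposited FPKM (fragments scaled by gene length and by the library). On this scale *Hbegf* was the highest of the 6 EGFR ligands in 9 of 12 libraries and *Areg* in the other 3, the d-SMG library of day 7 and the s-GAG and Alg libraries of day 14. The FPKM of *Hbegf* was 4.16 to 12.5, and that of *Areg* 0.290 to 10.6. Among these 6, *Hbegf* exceeded the next ligand by a factor of 24.4 in the d-SMG library of day 3. There it made up 92.3% of their summed FPKM. *Egf*, also a ligand of EGFR, was not a member and is left out of these values. It had 3.45 FPKM in that library, against 7.08 for *Hbegf*. In the control libraries the share of *Hbegf* among the 6 was 55.2%, 68.3%, and 38.2% on day 3, 7, and 14. The next share in the controls was that of *Areg*, 22.2%, 16.1%, and 27.3%. In the s-GAG libraries *Epgn* held 22.2%, 23.2%, and 24.0% of the ligand FPKM, against 11.2%, 6.60%, and 5.82% in the controls. The summed FPKM of the 6 ligands was lowest in the d-SMG library of day 3 (7.67) and highest in the d-SMG library of day 14 (30.9). FPKM is scaled without TMM, so that it does not rank libraries as CPM does. The TMM factor was 0.709 in the d-SMG library of day 3 and 0.988 in the control library of day 7, the next lowest at 8.33 FPKM. Which of these 2 was lowest therefore depends on the scaling. It also depends on the genes summed, as *Egf*, left out of both sums, had 3.45 and 0.66 FPKM in them, respectively. *Nrg1* had an FPKM of 0.0400 to 0.630, although its CPM was close to that of *Areg*. The deposited reads and FPKM together give a length of 22.7 kb for the *Nrg1* gene model and of 1.26 kb for *Areg*, so that the order of these 2 genes depends on the scale.

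Among the receptors, *Erbb2* had the highest FPKM in 6 of the 12 libraries, *Erbb3* in 4, and *Egfr* in 2, the s-GAG libraries of day 3 and 7. The ratio of the FPKM of *Egfr* to that of *Erbb3* was 0.432, 0.779, and 0.777 in the controls and 1.84, 1.60, and 1.81 in the s-GAG libraries on day 3, 7, and 14, so that the order of these 2 receptors was opposite in the 2 groups on each day. With d-SMG the ratio was 0.388, 0.597, and 1.74, and with Alg 1.098, 1.18, and 0.757. *Erbb2* was more steady, with 2.68 to 8.45 FPKM. The levels of neighbours in these orders rest on 1 library each, and *Areg* exceeded *Hbegf* by a factor of only 1.04 in the d-SMG library of day 7.

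**Figure D2:**
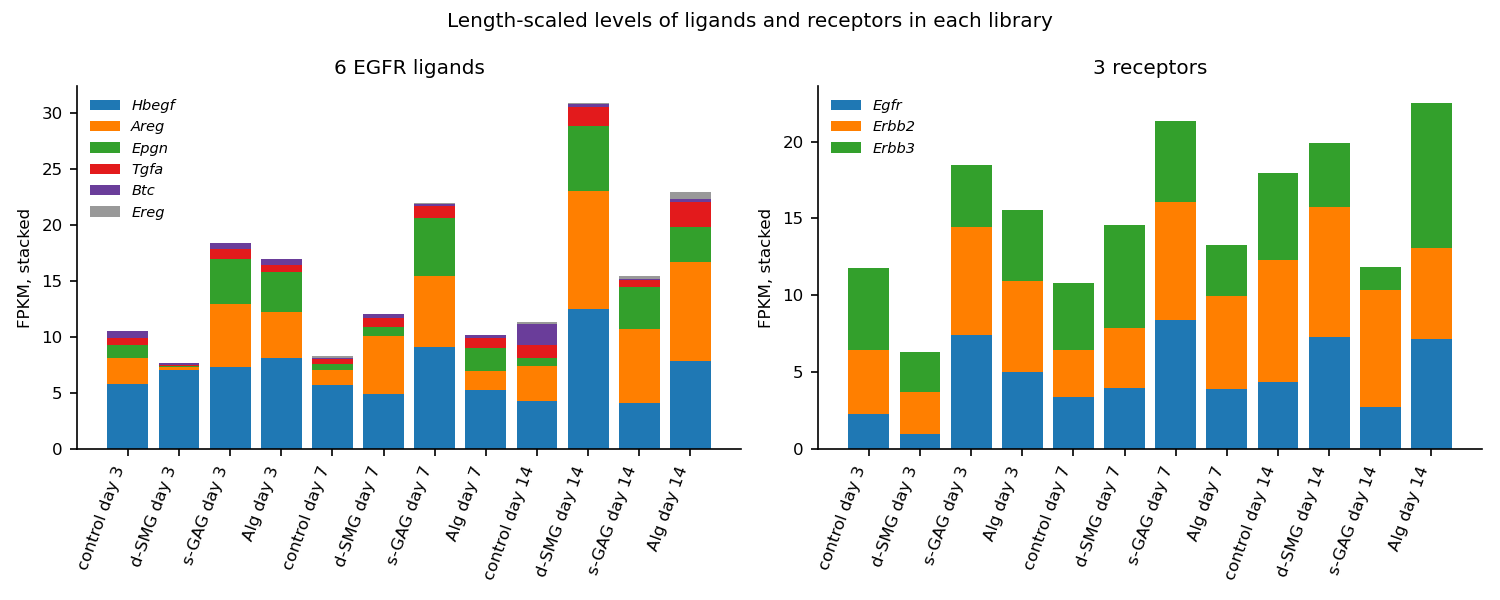
Deposited FPKM (vertical axis, stacked) of the 6 EGFR ligands among the members (left, without *Egf*) and the 3 receptors (right) in each of the 12 libraries, ordered by day, with 1 bar per library. *Hbegf* makes up 92.3% of the ligand bar of the d-SMG library of day 3, and the tallest ligand bar, 30.9 FPKM, is the d-SMG library of day 14.

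The days (4 treatments each) and the treatments (3 days each) were compared in 1 edgeR quasi-likelihood fit with both as terms, in which an effect that differs between days counts as spread. No member was called at an FDR of 0.05 in any of these 7 comparisons. Neither was any of the 15354 genes tested (0% called in each), so that these calls cannot tell the members from other genes. With DESeq2 up to 289 genes were called in a comparison, none of them a member. At an unadjusted p-value under 0.05, 1.66% of all genes were past the threshold between day 7 and 3, 2.88% between day 14 and 7, and 4.86% between day 14 and 3. The corresponding shares were 4.57% for the 3 dressings together against control, 1.32% for d-SMG, 9.11% for s-GAG, and 2.94% for Alg.

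Between day 14 and day 3, 2 of the 8 members had a 95% interval that left out 0. *Tgfa* had a log2 fold change of 1.55 (SE 0.50, interval 0.42 to 2.68, adjusted p = 0.893, n = 4 libraries a day), and *Erbb2* one of 0.68 (SE 0.29, interval 0.04 to 1.33, adjusted p = 0.893). The log2 fold changes of *Areg*, *Nrg1*, *Epgn*, and *Egfr* were 1.32 ± 0.64, 1.05 ± 0.53, 0.93 ± 0.94, and 0.73 ± 0.44 (SE), with an adjusted p of 0.893 to 0.936. Those of *Erbb3* and *Hbegf* were 0.17 ± 0.39 and −0.11 ± 0.34 (adjusted p = 0.975 and 0.982). The fitted value was above 0 for 7 of the 8 members, with a median of 0.83, against a median of 0.00 over all genes. Without the d-SMG library of day 3 the values were 1.11 for *Tgfa*, 0.66 for *Erbb2*, 0.77 for *Areg*, and 0.11 for *Epgn*. Those of *Nrg1*, *Egfr*, *Erbb3*, and *Hbegf* were 0.67, 0.38, 0.12, and −0.02, so that the median of 0.83 rests in part on that library. The interval of *Erbb2* then included 0 (SE 0.35) while that of *Tgfa* did not (SE 0.40). With all libraries, the basal keratinocyte genes had a median of 1.38 in this comparison and the suprabasal ones 2.76. Of these, 7 of 7 and 8 of 8 genes were above 0. Both medians include the d-SMG library of day 3 and are not given without it. The part of these genes in the values of the members was not tested. Between day 14 and 7, *Erbb2* was the one member whose interval left out 0 (0.69 ± 0.29, adjusted p = 0.904), and between day 7 and 3 there was none. Leaving out the d-SMG library of day 3, other members stood there between day 14 and 7, as the interval of *Erbb2* (0.68 ± 0.31) then included 0 while those of *Areg* (1.20 ± 0.34) and *Tgfa* (0.86 ± 0.35) left it out (adjusted p = 0.888 for each).

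Against the control, the fitted values of *Epgn*, *Areg*, *Egfr*, and *Erbb2* were larger with s-GAG than with the other 2 dressings, whereas that of *Hbegf* was largest with d-SMG (0.65 ± 0.40) and those of *Nrg1*, *Tgfa*, and *Erbb3* with Alg (0.86 ± 0.60, 0.61 ± 0.55, and 0.11 ± 0.45). These differences between dressings were not tested. With s-GAG, *Epgn* had a log2 fold change of 2.48 (SE 1.01, interval 0.21 to 4.74, adjusted p = 0.531, n = 3 libraries a group), that is 5.57-fold, and was the one member whose interval left out 0. *Areg* was at 1.57 ± 0.72, *Egfr* at 1.01 ± 0.49, and *Erbb2* at 0.73 ± 0.33, with an adjusted p of 0.547 to 0.565 and intervals that reached just below 0. *Nrg1*, *Tgfa*, and *Hbegf* had 0.55 ± 0.59, 0.50 ± 0.56, and 0.42 ± 0.40, while *Erbb3* had −0.51 ± 0.45 (adjusted p = 0.688 to 0.731). The median of the 8 members was 0.64, against 0.00 over all genes. Without the d-SMG library of day 3, the s-GAG values of *Areg* and *Epgn* were 1.65 ± 0.40 and 2.62 ± 0.64, close to those with it but with smaller SEs. Their intervals then left out 0 (adjusted p = 0.136 and 0.143, not called), while 69 of all 15354 genes were called for s-GAG. For this and the other fits without that library, the share of all genes whose interval left out 0 is not given. The intervals of members in those fits are therefore not set against all genes. In the comparison of s-GAG with control the median was 1.23 for the basal keratinocyte genes (7 of 7 above 0) and 5.94 for the hair follicle genes (10 of 10 above 0), and their part in the values of the members was not tested.

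With Alg all 8 members had a fitted value above 0, from 0.11 ± 0.45 for *Erbb3* to 1.78 ± 0.98 for *Epgn* (adjusted p = 0.9999 for each), with a median of 0.63 against −0.02 over all genes. With d-SMG the values ran from −0.24 ± 0.45 for *Erbb3* to 0.80 ± 0.75 for *Areg*, 4 of 8 above 0, with a median of 0.02 as over all genes (0.02). The interval of *Areg* with d-SMG was −0.88 to 2.47 and that of *Epgn* −1.73 to 3.19, so that with these 3 libraries a rise of several-fold was inside both intervals, and a fall of that size inside that of *Epgn* alone. Without the d-SMG library of day 3, *Areg* with d-SMG had a log2 fold change of 1.49 ± 0.45 (adjusted p = 0.698) and *Epgn* 1.68 ± 0.75 (adjusted p = 0.972), and the interval of *Areg* then left out 0. *Hbegf*, *Egfr*, *Nrg1*, and *Tgfa* then had 0.52 ± 0.49, 0.44 ± 0.48, 0.40 ± 0.60, and 0.35 ± 0.46. *Erbb2* and *Erbb3* had −0.04 ± 0.41 and −0.20 ± 0.53. The d-SMG median of 0.02 thus rests in part on that library. For Alg the value of *Epgn* was then 1.83 ± 0.62 (adjusted p = 0.710), with an interval that left out 0. For the 3 dressings together, *Epgn* and *Areg* had 1.66 ± 0.89 and 1.08 ± 0.62, and the other members between −0.21 and 0.58 (adjusted p = 0.964 to 0.970). Without that library *Epgn* and *Areg* had 2.04 ± 0.58 and 1.34 ± 0.35 for the 3 dressings together (adjusted p = 0.304 and 0.256), with intervals that left out 0. The comparisons of the dressings share the control libraries.

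**Figure D3:**
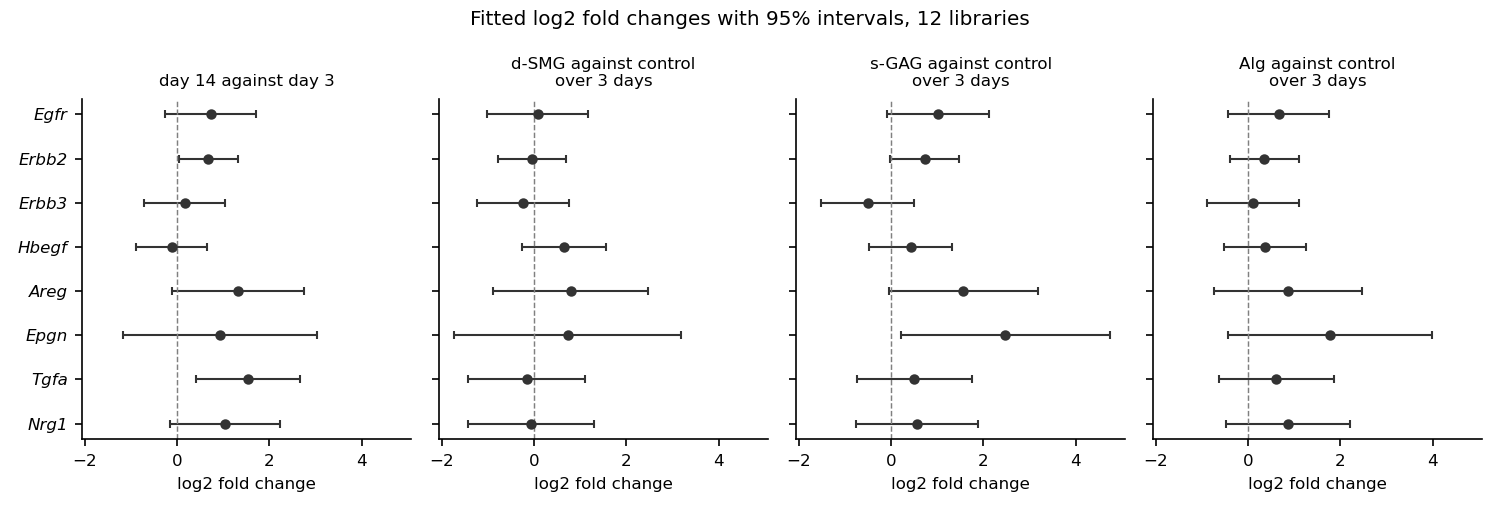
Fitted log2 fold change (horizontal axis) of the 8 tested members, with points for the estimate and bars for its 95% interval, in 4 comparisons over the 12 libraries. The interval of *Epgn* with s-GAG starts at 0.21, the intervals of *Tgfa* and *Erbb2* between day 14 and 3 at 0.42 and 0.04, and all other bars cross 0.

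When the 3 dressings of a day were taken as replicates of a dressed wound, no member was called on any of the 3 days, nor was the difference between day 14 and day 3 called for any (0% of all genes in each). At an unadjusted p-value under 0.05, 2.3%, 1.77%, and 7.83% of all genes were past the threshold on day 3, 7, and 14, and 4.79% for the difference between day 14 and 3. On day 14 *Nrg1* had a log2 fold change of 2.07 (SE 0.86, interval 0.13 to 4.01, adjusted p = 0.597), with 3 of 3 dressed libraries above the lone control. Those of *Epgn* and *Areg* were 2.73 ± 1.77 and 1.52 ± 1.12 (adjusted p = 0.612 and 0.642), and that of *Hbegf* 0.90 ± 0.57 (adjusted p = 0.609), again with 3 of 3 libraries above the control. *Erbb2* was at −0.02 ± 0.54. For *Nrg1* the difference between day 14 and day 3 was 2.21 ± 1.09 (adjusted p = 0.769). On day 7 the 8 members had values of 0.10 to 2.21, and on day 3 of −0.44 to 1.03 (adjusted p = 0.9998 on day 3). Leaving out the d-SMG library of day 3, the largest values of that day were 1.59 ± 1.05 for *Epgn* and 1.34 ± 0.66 for *Egfr* (adjusted p = 0.971). On day 14 *Nrg1* and *Epgn* then had 2.04 ± 0.63 and 2.71 ± 1.11 (adjusted p = 0.448 and 0.490), with intervals that left out 0. The lone control library of a day was assumed to vary like the dressed ones.

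Each dressed library was also set beside the control library of its day. With 1 library on each side there is no test, and the share of members past 2-fold is read against that of all genes with at least 10 reads in the pair. On day 3, s-GAG was past 2-fold higher for 3 of 9 members (*Egfr*, *Epgn*, and *Areg*, at 2.98-, 3.18-, and 2.19-fold) and lower for none, against 14.6% of all genes higher and 10.9% lower. Alg was higher for 2 of 9 (*Epgn*, 2.86-fold, and *Egfr*, 2.09-fold) and lower for none, against 11.5% and 8.56%. The d-SMG library was higher for none and lower for 4 of 9, against 10.8% and 12.4%. These 4 were *Areg* (6 reads against 69, control 5.71-fold higher), *Tgfa* (7 against 63, 4.47-fold), *Nrg1* (14 against 93, 3.30-fold), and *Epgn* (1 against 54, log2 ratio −4.75, counting interval −10.08 to −2.21). In the same pair the control was 60.1-fold higher in the basal keratinocyte genes, and their part in the 4 ratios was not tested. *Hbegf* was 1.73-fold higher in that d-SMG library.

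On day 7, s-GAG was past 2-fold higher for 5 of 8 members and lower for none, against 11.2% and 13.1% of all genes. The 5 were *Epgn* (8.75-fold), *Areg* (4.53-fold), *Erbb2* (2.38-fold), *Egfr* (2.36-fold), and *Tgfa* (2.11-fold). Alg was higher for 2 of 8, *Epgn* (3.98-fold) and *Erbb2* (2.08-fold), and lower for none, against 12.3% and 12.1%. The d-SMG library was higher for 1 of 8, *Areg* at 3.20-fold (114 reads against 25), and lower for none, against 7.32% and 5.77%. The receptors *Egfr* and *Erbb2* were at 0.980- and 1.06-fold in the d-SMG library of this day, against above 2-fold in the s-GAG library.

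On day 14, the d-SMG library was past 2-fold higher for 4 of 9 members, against 12.8% of all genes, and lower for 1 (*Btc*), against 15.8%. The 4 were *Epgn* (7.93-fold), *Nrg1* (3.46-fold), *Areg* (3.09-fold), and *Hbegf* (2.62-fold). With s-GAG 3 of 9 were higher, *Epgn* (7.63-fold), *Nrg1* (3.21-fold), and *Areg* (2.85-fold), and 2 of 9 lower, *Erbb3* (control 2.74-fold higher) and *Btc*, against 28.2% and 29.6% of all genes. With Alg 4 of 10 were higher, *Nrg1* (5.92-fold), *Epgn* (4.41-fold), *Areg* (2.69-fold), and *Ereg* (8 reads against 3, log2 ratio 1.80 with an interval of −0.26 to 4.35), and 1 lower (*Btc*), against 9.54% and 11.7%. *Epgn*, *Areg*, and *Nrg1* were thus past 2-fold with all 3 dressings on day 14, while *Egfr*, *Erbb2*, and *Tgfa* were within 2-fold with each. With s-GAG the members' shares were near those of all genes, which lay past 2-fold more often than in any other pair. All ratios of a day share 1 control library.

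**Figure D4:**
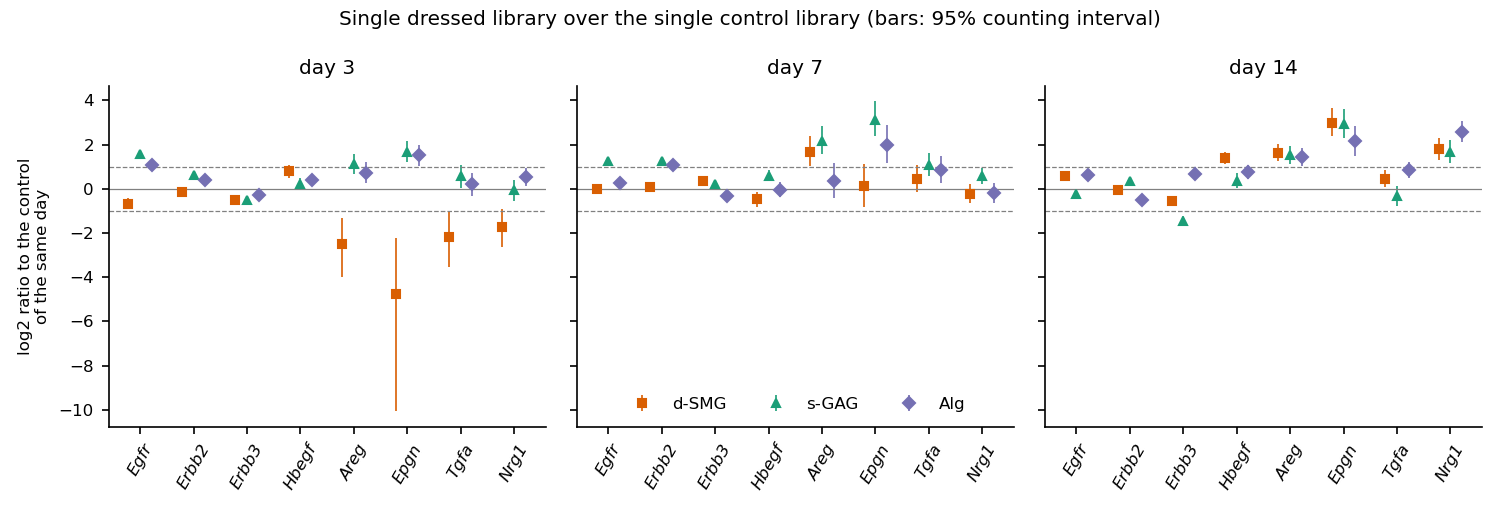
Log2 ratio (vertical axis) of each dressed library to the control library of the same day for the 8 tested members, 1 panel per day. Bars are 95% counting intervals and cover no spread between animals, and dashed lines mark 2-fold. On day 14 the 3 dressings lie above the upper line for *Areg*, *Epgn*, and *Nrg1*, and on day 3 the d-SMG points of *Areg*, *Epgn*, *Tgfa*, and *Nrg1* lie below the lower line.

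The members were then compared with the summed markers of cell types, as a description over the 12 libraries, which differ in treatment, day, and depth together. Across libraries, *Epgn* had a Pearson r of 0.83 (Spearman rho 0.90) with the 7 basal keratinocyte genes, *Areg* 0.83 (0.83), and *Tgfa* 0.83 (0.71) on the log2 scale. Without the d-SMG library of day 3 alone these r values were 0.82, 0.74, and 0.53. Without the 2 libraries farthest from the median of the markers (d-SMG of day 3 and s-GAG of day 14) they were 0.83, 0.70, and 0.70. *Hbegf* had −0.25 (rho 0.10), and 0.65 without those 2 libraries, so that the pooled value rests on them. Without the d-SMG library of day 3 alone it had 0.39. *Erbb3* had −0.05 (rho −0.30) with the basal keratinocyte genes, and −0.54 without the d-SMG library of day 3. With 8 macrophage genes *Erbb3* had 0.86 (rho 0.85), and 0.77 without the 2 libraries farthest from their median (s-GAG and Alg of day 14). These 2 libraries, the lowest and the highest for *Erbb3*, were also the lowest and the highest for the macrophage genes, at 309.9 and 2720 CPM. *Erbb2* had an r of −0.84 (rho −0.87) with 6 endothelial genes, and −0.81 without their 2 farthest libraries (d-SMG of day 14 and control of day 7). *Areg* and *Egfr* also had an r of 0.87 and 0.85 with 10 hair follicle genes (rho 0.86 and 0.81), and *Tgfa* one of 0.90 with 8 suprabasal genes (rho 0.83). Without the d-SMG library of day 3 these r values were 0.82, 0.79, and 0.74. With the 3 wound keratins *Krt6a*, *Krt16*, and *Krt17*, *Areg* had an r of 0.89 (rho 0.87) and *Epgn* one of 0.87 (rho 0.91), and 0.83 and 0.81 without that library. Basal keratinocyte genes were 1.69 to 5.78 times the control of the day in the 8 dressed libraries other than the d-SMG library of day 3, in which *Areg* and *Epgn* were also above the control. Suprabasal keratinocyte genes lay on both sides of the control in these 8 libraries. On day 14 they were 0.145, 0.291, and 0.782 times the control with d-SMG, s-GAG, and Alg. On day 7 they were 2.09, 4.997, and 4.297 times the control with the same dressings. On day 3 they were 1.62 times the control with s-GAG and 0.929 times with Alg. Hair follicle genes summed to 33.03 CPM in the control of day 3 and to 10332 and 3006 CPM in the s-GAG and Alg libraries of that day. The part of any of these cell types in the values of the members was not tested.

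**Figure D5:**
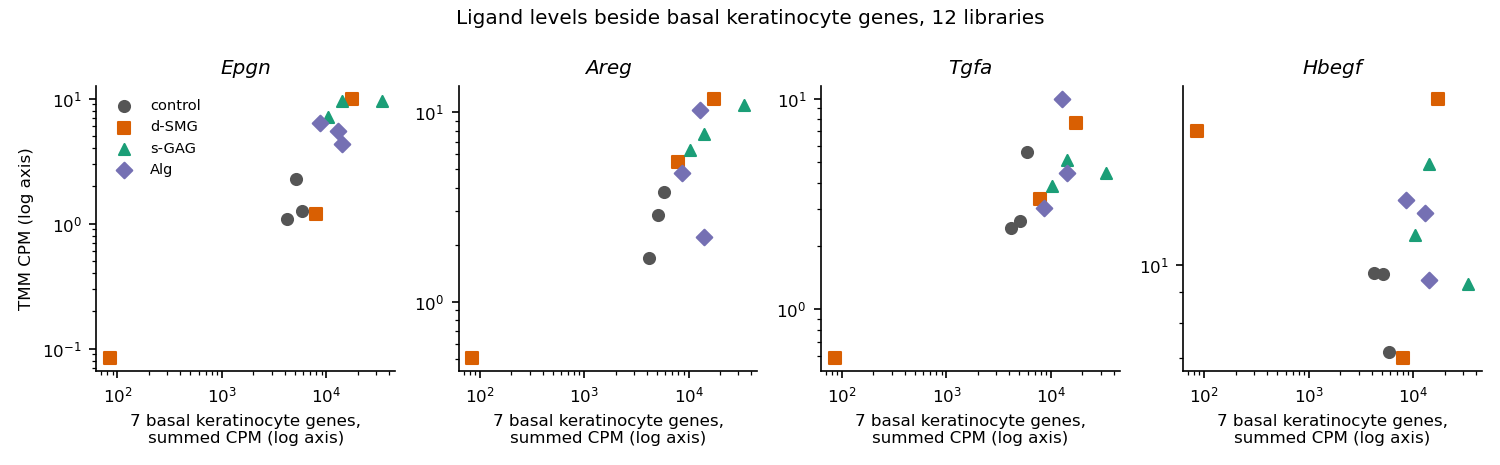
TMM CPM (vertical axis, log) of *Epgn*, *Areg*, *Tgfa*, and *Hbegf* against the summed CPM of 7 basal keratinocyte genes (horizontal axis, log), with 1 point per library. The d-SMG library of day 3 is the single point at 84.9 CPM on the horizontal axis, lowest for *Epgn*, *Areg*, and *Tgfa* and second highest for *Hbegf*.

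Among the members themselves, the highest Pearson r over the 12 libraries were those of *Tgfa* with *Areg* (0.84), *Egfr* with *Tgfa* (0.83), and *Areg* with *Epgn* (0.83). Without the d-SMG library of day 3 these were 0.68, 0.67, and 0.71, while *Hbegf* and *Epgn* went from 0.26 to 0.76. *Erbb2* and *Erbb3* had an r of −0.39, and −0.47 without that library. Of 14150 other genes with a mean of at least 1 CPM, those with the pattern most like *Areg* over the 12 libraries were *Kng2l1* (r = 0.98), *Bpifc* (0.95), and *Kng1* (0.95). For *Epgn* they were *Epb41l4a* (0.97), *Itga3* (0.96), and *Wnk4* (0.96), and for *Tgfa* they were *Ankrd22*, *Crybg1*, and *Pkp1* (0.95, 0.95, and 0.94). *Egfr* was most like *Ptpn13*, *Epha4*, and *Kdsr* (0.98, 0.97, and 0.97), *Erbb2* most like *Arvcf*, *Epn3*, and *Ptger3* (0.92, 0.91, and 0.91), and *Erbb3* most like *Mynn*, *Adamts5*, and *Cdc40* (0.94, 0.93, and 0.92). *Utp14a* and *Bysl* were among the genes most like *Hbegf* (0.83 and 0.81). For *Nrg1* they were *LOC120093742* (0.92), *Ddx52* (0.89), and *Dstn* (0.89).

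The rest of the family and the pathway were followed with lists chosen by name. The other EGF family genes were *Egf*, *Nrg2*, *Nrg3*, *Nrg4*, and the receptor *Erbb4*. *Egf* had its highest value, 31.9 CPM, in the d-SMG library of day 3 and 1.37 to 10.6 CPM in the other libraries, opposite to most of the members, and this library also had the highest muscle genes. *Erbb4* was at most 1.67 CPM and *Nrg3* had 7 reads in all. *Nrg4* was highest in the s-GAG and d-SMG libraries of day 14 (23.1 and 20.9 CPM, against 5.73 CPM in the control), and *Nrg2* in the Alg library of day 14 (8.98 CPM). None of the 4 that were tested was called in any comparison, nor was any other gene (0% of all genes in each).

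Of 10 sheddases and their regulators, 26 adaptors and kinases downstream of the receptors, 20 inhibitors of ERBB and ERK signaling, and 14 ERK-responsive genes, all were tested. None was called in either direction in any of the 11 comparisons. As 0% of all 15354 genes were called in each, this does not set the lists apart from other genes. For s-GAG against control, the sheddase list had a median log2 fold change of −0.66 and 2 of 10 genes above 0, against a median of 0.00 over all genes. *Adam19*, a metalloprotease, was at −2.39 (adjusted p = 0.499) and *Timp3*, an inhibitor of ADAM17, at 1.06 (adjusted p = 0.548). In the downstream list, which had a median of −0.27, *Hras* was at 1.61 and *Shc1*, an adaptor, at −1.13 (adjusted p = 0.499 and 0.531). Among the inhibitors (median 0.07), *Cblc*, a ubiquitin ligase, *Lrig1*, which binds and lowers EGFR, and *Dusp5*, an ERK phosphatase, were at 1.57, 1.21, and 1.06 (adjusted p = 0.431, 0.448, and 0.531). Among the ERK-responsive genes (median 0.12), *Etv4*, *Ier3*, and *Myc* were at 1.75, 0.80, and 1.01 (adjusted p = 0.511 to 0.531). For dressed against control on day 14, *Fos* was at −2.76 and *Myc* at 1.70 (adjusted p = 0.532 and 0.597), so that members of the same list lay on both sides of 0.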

How the data were processed

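Stranded, rRNA-depleted libraries of rat skin were sequenced as paired reads of 150 bases in 12 samples, 1 for each of 4 treatments on each of 3 days. The authors deposited read counts of 25620 genes, whole numbers without normalization, and, for 25524 genes, FPKM values, which are relative to the length of the gene model and the size of the library. The submitters' processing notes name bcl2fastq, FastQC, TopHat2, and edgeR, without versions. The genome build and the counting tool are not given in the sources used here. Each of the 2 tables has 1 further column that matches no described sample, which was not used. The library totals of 13748887 to 38302461 reads set the counting error of each value.

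Counts were tested with the quasi-likelihood test of edgeR 4.0.16 (R 4.3.3, TMM, filterByExpr, 15354 genes, Benjamini-Hochberg adjustment over all of them, FDR 0.05) over all 12 libraries. The first fit had treatment and day as terms (7 comparisons), and the second 6 cells, day by control or dressed (4 comparisons). Both left 6 residual degrees of freedom, and no sample was dropped. Because 1 library stood for each group, the p-values set a difference against a residual spread. In the first fit this is the departure of the libraries from additive terms of treatment and day. In the second it is the spread among the 3 dressings of a day. Either holds differences between animals and may be technical. Single pairs were given as ratios with exact Clopper-Pearson intervals (95%, counting error only), with counts under 3 set to 3 when a fold was judged and at least 10 reads in the pair. Both fits were first tested on simulated data. Correlations used log2(CPM + 0.5). The alternatives were RLE size factors, the library size, no filter, at least 50 reads in at least 4 libraries, DESeq2 1.42.0, robust edgeR, limma 3.58.1 on log2(FPKM + 1) and log2(FPKM + 0.1), no block, and leaving out each library. Python 3.11.15 with matplotlib 3.10.9 made the figures.

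The members, the gene lists, and the marker lists were chosen with earlier results of these data known. The genes named are all members, the other 5 family genes, up to 3 genes of each list with the smallest adjusted p-value, and the 3 genes most like each member, of which 1 is not reported here. Promoter windows are from RefSeq (GRCr8), and 10 of 10 members were matched by symbol to its gene table. Proteins were not used here.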

Additional observations from a re-analysis of the deposited data

How the results depend on the processing

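No member was called under any of the 222 recomputed counts of the 11 comparisons, that is RLE size factors, library size alone, no filter, the stricter filter, DESeq2, robust edgeR, both limma fits, no replicate block, and each library left out. The lowest adjusted p of a member under any of them was 0.136 (*Areg*, s-GAG, without the d-SMG library of day 3). In the fit with no replicate block, the treatment or the day was the only term, for the 7 comparisons of the first fit. Each group of a treatment and a day has 1 library, so that the replicate number is 1 throughout and pairs nothing. Treatments were matched by day only, through the day term of the first fit and in the single pairs. Leaving out a control library gave no value where the control of that day was needed. Calls over all genes did depend on the tool. DESeq2 called 134 genes for the 3 dressings, 8 for d-SMG, 289 for s-GAG, 83 for Alg, 38 between day 14 and 3, 7 between day 14 and 7, and 0 between day 7 and 3. For dressed wounds it called 12, 1, and 122 on day 3, 7, and 14, and 16 for the difference. Without the d-SMG library of day 3, edgeR called 69 genes for s-GAG and 1 for dressed wounds on day 7, and without the Alg library of day 7 it called 1 for s-GAG. No filter gave 1 for s-GAG, and limma with a pseudocount of 1 gave 5 for dressed wounds on day 14 and 1 for the difference. Over the 9 single pairs together, 32 member ratios were past 2-fold (24 higher and 8 lower). They were 12 past 4-fold, 21 with FPKM and a pseudocount of 1, and 9 in the exact test of edgeR at a set BCV of 0.3, and 28 to 35 with the other 4 settings. The counts of all genes moved with the setting too. For s-GAG on day 14, of 16517 genes 4664 were past 2-fold higher and 4887 lower, against 1917 and 2110 past 4-fold. The shares of all genes are given for each pair and not for the 9 pairs together. The pooled member counts are therefore not set against all genes.

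Of 992 recomputed fold changes of members, 964 kept their sign and 28 did not, and none was called. For d-SMG against control, *Egfr* was −0.0526 and *Epgn* −0.0017 with FPKM and a pseudocount of 0.1. *Tgfa* was 0.0411 with a pseudocount of 1 and 0.13 with no block. *Nrg1* was 0.0562 and 0.12 with the pseudocounts 1 and 0.1, 0.0883 with library size alone, and 0.22 with no block. With 1 library left out, the d-SMG values were −0.49 to 0.44 for *Egfr*, −0.29 to 0.18 for *Erbb2*, −0.68 to 0.35 for *Tgfa*, −1.27 to 1.67 for *Epgn*, and −0.65 to 0.40 for *Nrg1*. They were −0.28 to 0.49 for *Erbb3* and −0.40 to 0.0587 for *Hbegf* between day 14 and 3. *Nrg1* for the 3 dressings was −0.10 to 0.93, *Erbb3* for Alg −0.52 to 0.45, and on day 14 *Erbb2* and *Erbb3* in dressed wounds were −0.27 to 0.18 and −0.95 to 0.14. The cause was not tested. Library size alone moved the median of all genes by 0.12 for dressed wounds on day 7 and by 0.10 between day 7 and 3, and limma with a pseudocount of 0.1 by −0.17 on day 3 and by −0.13 on day 14. In the single pairs, library size alone put the median of all genes at −0.46 for d-SMG on day 3 and at −0.48 for s-GAG on day 14. In the former 7 of 9 members then lay past 2-fold lower and 0 higher. Of all 15846 genes of that pair, 3722 were lower and 849 higher, against 1958 and 1712 with TMM. Depth limits *Btc* and *Ereg*, with at most 26 and 8 reads in a library.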
